A study of Mus musculus with 10 samples.

Results

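The angiotensin and endothelin systems of the aorta were followed through 10 listed genes, Agt, Ace, Agtr1a, Agtr1b, Agtrap, Edn1, Ece1, Ednra, Ednrb and Avpr1a. All probe sets whose platform gene symbol is one of these were taken, which gave 16 of the 45037 probe sets other than controls and 9 of 18193 named genes. Ednra was not analysed here. The samples were aortae of male NPAS2 mutant mice on a C57Bl/6J background and of male wild-type C57Bl/6 mice, with 5 arrays in each group and 1 array per replicate. All mice were first entrained for 2 weeks or longer to a cycle of 12 h light and 12 h dark, then held in constant darkness for no less than 30 h, and were killed under anaesthesia at zeitgeber time 14 h, so the data hold a single time point. The vessels were perfused before removal, and the labels call the tissue thoracic aorta in one place and describe a longer piece, past the femoral branching, in another. Neither the nature of the NPAS2 mutation nor the mouse behind each array is stated in the labels, so the p values reflect array-to-array spread, which may be technical. Strain was the single factor of the design, and the comparison asks which transcripts differ in the mutant. C57Bl/6J is named for the mutant and C57Bl/6 for wild type, so any background difference cannot be told apart from the mutation.

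The renin-angiotensin system makes its hormone from angiotensinogen (Agt), which renin cuts to angiotensin I and angiotensin-converting enzyme (Ace) then trims to angiotensin II. Angiotensin II contracts vascular smooth muscle through type 1 receptors, of which rodents carry a pair of genes, Agtr1a and Agtr1b, and Agtrap binds the type 1 receptor and promotes its internalisation. Endothelin-1 (Edn1) is released mainly by endothelium as a precursor that endothelin-converting enzyme (Ece1) activates. Its type B receptor, Ednrb, mediates nitric oxide release from endothelium and clears the peptide, while Avpr1a is the vasopressin receptor of vascular smooth muscle. NPAS2 is a transcription factor of the circadian clock that pairs with BMAL1 on DNA elements called E-boxes.

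None of the 8 genes that could be tested separated mutant from wild-type aorta after correction over the whole array. Levels are log2 values per probe set, and a change is the mutant mean minus the wild-type mean on that scale. Array values are listed in the order F12, F13, F18, F19 and F20 for the mutant and F11, F14_2, F15, F16 and F17 for wild type. Of the 16 probe sets, 13, covering 8 genes, were bright enough to be tested, that is, brighter than the median probe set of the same array on 5 or more of the 10 arrays. By limma 0 of the 13 had a Benjamini-Hochberg adjusted p under 0.05, where 0.215% of all 22340 tested probe sets did. At an unadjusted limma p under 0.05 the count was also 0 of 13, against 15.3% of all tested probe sets, and a one-way analysis of variance per probe set called 0 as well. The lowest adjusted p among the 13 was 0.333. The groups of arrays failed to overlap at 1 of the 13, an Agtrap probe set, and at 4.01% of all tested probe sets. In 7 of the 13 the mutant mean was the higher one, as in 42.4% of all tested probe sets. The median change was 0.022 over the 13 and -0.028 over all tested probe sets, and the median absolute change was 0.16 over the 13 and 0.10 over all.

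The members were measured with a median standard error of 0.15, against 0.098 over all tested probe sets, so the size of change that each could show is given with its interval. The smallest absolute moderated t among the called probe sets was 5.96. At that t, a change of 0.44 would have been needed at the bright Ece1 probe set, 0.94 at Edn1 and 2.05 at Agtr1a. A missed threshold at a single member therefore does not show that its level was the same in both groups.

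**Figure D1:**
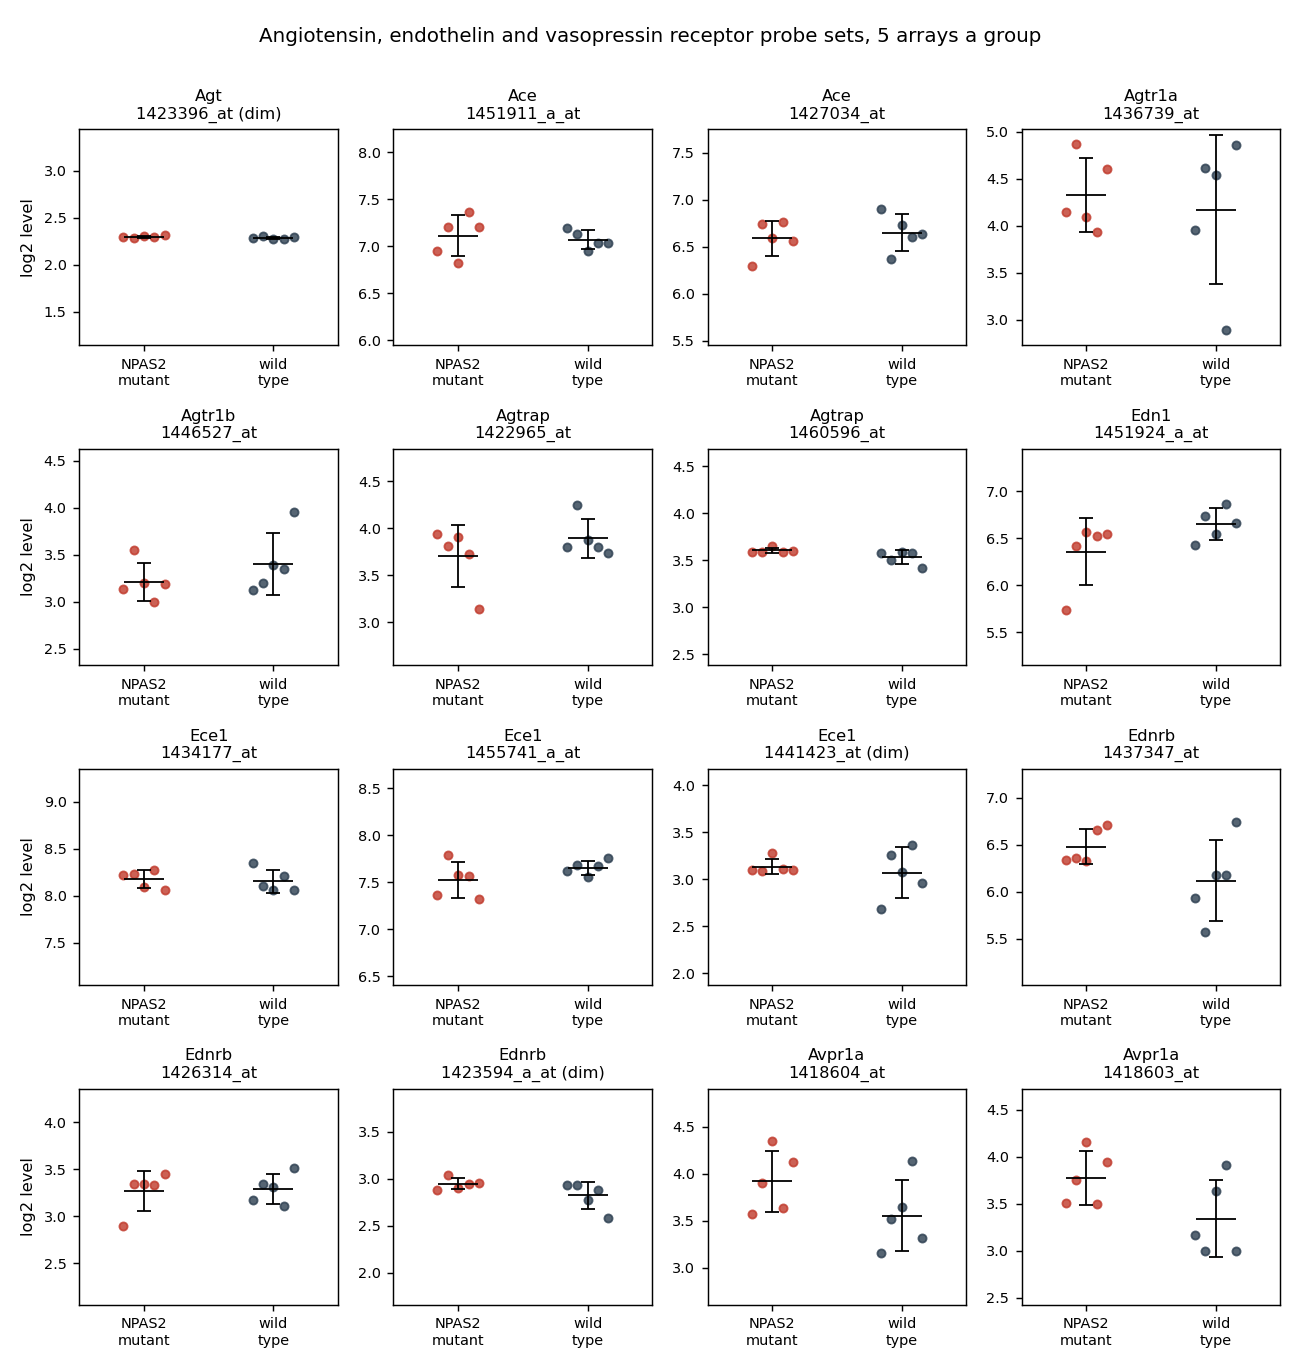
Log2 level (vertical axes, all of the same span) of the 16 probe sets on the 5 NPAS2 mutant arrays (red, left) and the 5 wild-type arrays (dark, right), with group means and SD as bars. The groups overlap in every panel except Agtrap 1460596_at, where the separation is 0.074 between the means, and the widest scatter is that of Agtr1a in wild type.

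Markers of the tissue's cell types give the setting for these values. All 10 contractile smooth muscle markers were measured, with list means between 11.04 and 11.29 on mutant arrays and between 11.20 and 11.45 on wild-type arrays, and 9 of the 10 had a lower mean in the mutant. The 12 endothelial markers had list means between 6.07 and 6.31 in the mutant and between 6.05 and 6.24 in wild type, and their means differed by 0.028 (exact permutation p = 0.651). The brown fat list did not overlap between the groups, at 8.57 to 9.04 in the mutant and 7.80 to 8.33 in wild type. It covered 11 of 12 markers, 9 higher and 2 lower in the mutant, with Zic1 below the array median. Its means differed by 0.60 (exact permutation p = 0.00794), while limma called 0 of the 11 markers. The marker lists were chosen with earlier results of these data known. The p values of list means, here and below, are therefore descriptions, with no adjustment over the lists. Skeletal muscle markers varied widely inside each group, with list means from 3.59 to 11 in the mutant and from 3.55 to 9.90 in wild type over 12 of 12 markers. Macrophage and leukocyte markers stood at 7.18 to 7.61 in the mutant and 7.00 to 7.28 in wild type (9 of 9 markers, 8 higher in the mutant, exact permutation p = 0.0476). Of 6 kidney and liver markers 0 were bright enough to be measured. Cell composition was examined only through fits with the brown fat, skeletal muscle or endothelial list mean as a covariate, given beside the members they moved by over 1.5 times. As the brown fat list mean separated the groups, it and the mutation cannot be told apart in such a fit. With it the standard error rose from 0.16 to 0.26 at Edn1 and from 0.19 to 0.29 at Ednrb. In whole-tissue RNA fewer cells of a type and less RNA per cell cannot be told apart. The Npas2 probe set 1421037_at had a change of -0.28 (limma adjusted p = 0.249), and the other, 1421036_at, one of 0.0076 below the brightness filter.

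The precursor genes come first in both systems. Edn1 (1451924_a_at), the gene of endothelin-1, had log2 levels of 5.73, 6.42, 6.56, 6.52 and 6.55 on the mutant arrays, against 6.43, 6.73, 6.55, 6.87 and 6.67 on the wild-type arrays. All 5 mutant arrays lay below the wild-type mean, 2 of them below the lowest wild-type array, and the groups overlapped. The means were 6.36 ± 0.35 in the mutant and 6.65 ± 0.17 in wild type (SD, n = 5 each). The change of -0.29 had a limma interval from -0.64 to 0.054 and an adjusted p of 0.389, so a fold between 0.642 and 1.04 lay inside the interval. The mutant array F12, at 5.73, stood apart from the other mutant arrays, and without it the change was -0.14 (adjusted p = 0.544). F12 had the highest list means of the 10 arrays for skeletal muscle, 11, and for brown fat, 9.04. With the skeletal muscle list mean as a covariate the change was -0.27 (adjusted p = 0.524). With the brown fat list mean as a covariate the sign turned, to 0.20 (adjusted p = 0.863), and with the endothelial list mean the change was -0.33.

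Agt, the gene of the angiotensin precursor, was among the dimmest transcripts read. Its single probe set, 1423396_at, read 2.29, 2.28, 2.31, 2.29 and 2.32 in the mutant, against 2.29, 2.30, 2.27, 2.27 and 2.29 in wild type. It was brighter than only 11.2% to 11.6% of the probe sets on each array, and its SD over all 10 arrays was 0.014, where the median SD was 0.032 for probe sets that were not tested and 0.17 for those that were. The difference of 0.012 had an exact two-sided permutation p of 0.183. A probe set this dim and this flat does not tell how much Agt transcript the tissue held.

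The converting enzymes were brightly read, with changes between -0.13 and 0.040 at their tested probe sets. The intervals reached from -0.33 to 0.26. Ace is carried by 2 probe sets with opposite signs. On 1451911_a_at the levels were 6.95, 7.20, 6.82, 7.36 and 7.20 in the mutant, against 7.20, 7.13, 6.95, 7.03 and 7.04 in wild type. The mutant arrays lay on either side of the wild-type ones, with 3 above the highest and 1 below the lowest. The change was 0.040 (interval -0.18 to 0.26, limma adjusted p = 0.869), and 0.016 with the brown fat and with the endothelial covariate. On 1427034_at it was -0.058 (interval -0.31 to 0.19, adjusted p = 0.823), with 6.30 to 6.76 in the mutant and 6.36 to 6.90 in wild type.

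Ece1 had the narrowest interval among the lead probe sets, the lead being the brightest tested probe set of a gene. Probe set 1434177_at read 8.22, 8.24, 8.09, 8.28 and 8.06 in the mutant, against 8.35, 8.11, 8.06, 8.21 and 8.06 in wild type. The groups covered the same range, with means of 8.18 ± 0.094 and 8.16 ± 0.12 (SD, n = 5 each, mutant first). The change of 0.022 had an interval from -0.14 to 0.18, that is a fold between 0.908 and 1.14 (limma adjusted p = 0.902). Adjusting for the brown fat list mean gave -0.12 (adjusted p = 0.851). A further tested probe set, 1455741_a_at, had a change of -0.13 (interval -0.33 to 0.066, adjusted p = 0.488), with 2 mutant arrays below and 1 above all wild-type arrays. The dim 1441423_at read 3.09 to 3.28 in the mutant and 2.68 to 3.37 in wild type (exact two-sided permutation p = 0.675).

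The type 1 angiotensin receptor genes were of middling rank, Agtr1a being brighter than 43.0% to 69.9% of an array's probe sets and Agtr1b than 45.1% to 61.4%. Agtr1a (1436739_at) had levels of 4.15, 4.87, 4.09, 3.93 and 4.602 in the mutant, against 3.96, 4.61, 4.54, 2.89 and 4.86 in wild type. The spread came mostly from the wild-type array F16, at 2.89, while the other 9 arrays lay between 3.93 and 4.87. The change was 0.16 with an interval from -0.60 to 0.92 (limma adjusted p = 0.847), the widest of the 13. Without F16 it was -0.16 (adjusted p = 0.773), so 1 array fixed its sign. The covariate for skeletal muscle gave 0.33 (adjusted p = 0.684) and that for brown fat gave 0.34 (adjusted p = 0.918).

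Agtr1b (1446527_at) read 3.13, 3.55, 3.19, 2.998 and 3.19 in the mutant, against 3.12, 3.198, 3.39, 3.34 and 3.95 in wild type. In the mutant 4 arrays were below the wild-type mean, and the highest value of all was the wild-type array F17. The change was -0.19 (interval -0.53 to 0.15, limma adjusted p = 0.562), and -0.051 without F17 (adjusted p = 0.855). With the brown fat covariate it was 0.20 (adjusted p = 0.871). On 6 of the 10 arrays this probe set was above the array's median, so it passed the brightness filter narrowly.

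Agtrap, the partner protein of the type 1 receptor, had 2 probe sets that went opposite ways. The brighter, 1422965_at, read 3.94, 3.81, 3.90, 3.72 and 3.14 in the mutant, against 3.80, 4.25, 3.88, 3.79 and 3.74 in wild type. Single arrays stood apart in each group, F20 low in the mutant and F14_2 high in wild type, and the other 8 arrays lay between 3.72 and 3.94. The change was -0.19 (interval -0.53 to 0.15, limma adjusted p = 0.563), and it was -0.047 without F20, -0.099 without F14_2 and -0.44 after adjusting for the brown fat list mean (adjusted p = 0.753). On 1460596_at all 5 mutant arrays, from 3.59 to 3.65, were above all 5 wild-type arrays, from 3.41 to 3.58. That change was 0.074 (interval -0.042 to 0.19, adjusted p = 0.507), and the lowest mutant and highest wild-type arrays were almost level.

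Ednrb gave the largest lead change among the endothelin genes. Its bright probe set, 1437347_at, read 6.34, 6.36, 6.33, 6.66 and 6.72 in the mutant, against 5.93, 5.58, 6.17, 6.18 and 6.74 in wild type. All 5 mutant arrays were above the wild-type mean, and above 4 of the 5 wild-type arrays, but wild-type F17 was the highest of all 10. The means were 6.48 ± 0.19 in the mutant and 6.12 ± 0.43 in wild type (SD, n = 5 each). The change of 0.36 had an interval from -0.048 to 0.77, a fold between 0.968 and 1.71, and a limma adjusted p of 0.371. Without F17 it was 0.52 (adjusted p = 0.199) and without wild-type F14_2 it was 0.23 (adjusted p = 0.465). With the brown fat covariate it was 0.999 (adjusted p = 0.512), and with the endothelial covariate 0.31 (adjusted p = 0.409).

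The dimmer Ednrb probe sets did not repeat that size. On 1426314_at the change was -0.019 (interval -0.27 to 0.23, limma adjusted p = 0.948), with 2.90 to 3.45 in the mutant and 3.11 to 3.51 in wild type. The untested 1423594_a_at read 2.88 to 3.03 in the mutant and 2.58 to 2.94 in wild type, a difference of 0.12 (exact two-sided permutation p = 0.111). The mean of the 2 tested Ednrb probe sets had a change of 0.17 (adjusted p = 0.512). Measured nerve and Schwann cell markers, a cell type in which Ednrb is also known, had list means of 5.004 to 6.10 in the mutant and 4.85 to 5.68 in wild type over 3 of 8 markers (exact permutation p = 0.667). The part of these cells in the Ednrb values was not tested.

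Avpr1a, the vasopressin receptor of smooth muscle, had the largest change of all 13, and its 2 probe sets went the same way. Both were of middling rank, 1418604_at being brighter than 50.1% to 65.5% of an array's probe sets and 1418603_at than 45.7% to 63.7%. The latter, which had the largest change, was above the array's median on 8 of the 10 arrays. On 1418604_at the levels were 3.58, 3.90, 4.35, 3.63 and 4.13 in the mutant, against 3.16, 3.52, 3.64, 4.14 and 3.31 in wild type. On 1418603_at they were 3.51, 3.75, 4.16, 3.50 and 3.95 in the mutant, against 3.16, 3.004, 3.64, 3.92 and 2.998 in wild type. On both probe sets all 5 mutant arrays were above the wild-type mean, and wild-type F15 and F16 lay among them. The changes were 0.36 (interval -0.074 to 0.80, limma adjusted p = 0.396) on 1418604_at and 0.43 (interval -0.0093 to 0.87, adjusted p = 0.333) on 1418603_at. With the brown fat covariate the change on 1418604_at was 0.58 (adjusted p = 0.753). The annotation gives the same source sequence for these probe sets, so they are not separate evidence. The contractile smooth muscle markers, the cells this receptor is known for, had a lower list mean in the mutant (a difference of -0.13, exact permutation p = 0.0556). The part of smooth muscle content in the Avpr1a values was not tested.

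**Figure D2:**
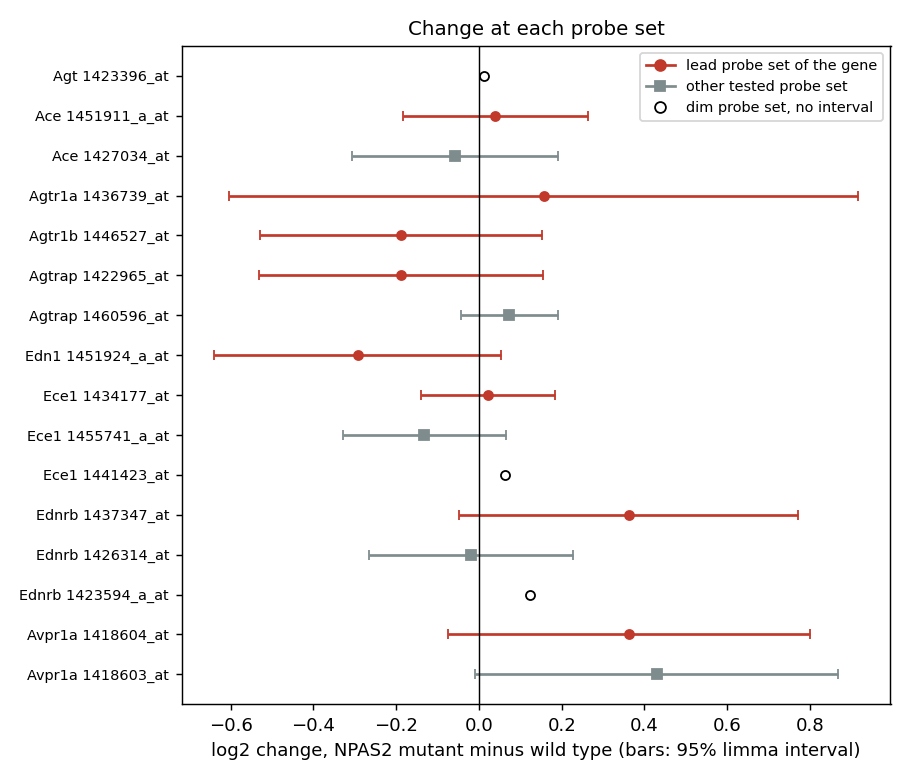
Log2 change, NPAS2 mutant minus wild type (horizontal axis), of the 16 probe sets, with 95% limma intervals for the 13 tested ones. All 13 intervals include 0, from the narrow ones of Agtrap 1460596_at and Ece1 1434177_at to that of Agtr1a, and the 3 dim probe sets are shown without an interval.

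Promoters were examined for the E-box letters CACGTG, a palindrome that reads alike on both strands and overlaps no other motif searched. RefSeq windows on GRCm38.p6, of 250 bases before to 50 after a start, were at hand for 8 of the 9 genes, in 12 windows, and Agtr1a was not among them. The motif was in 2 windows, those of Agtrap and of 1 of the 4 Ece1 starts, while 7.15% of all 32851 windows held it. The 250 bases before the start of each are given, with the motif in capitals, because these are the searched member windows that hold the letters of an NPAS2 element. The Agtrap stretch is chr4:148088065-148088314 on the minus strand, with the motif ending 7 bases before the start. The Ece1 stretch is chr4:137913308-137913557 on the plus strand, with the motif ending 84 bases before that start. The match is a description of these letters, and the changes of the lead probe sets were -0.19 for Agtrap and 0.022 for Ece1, neither past the threshold.
Agtrap: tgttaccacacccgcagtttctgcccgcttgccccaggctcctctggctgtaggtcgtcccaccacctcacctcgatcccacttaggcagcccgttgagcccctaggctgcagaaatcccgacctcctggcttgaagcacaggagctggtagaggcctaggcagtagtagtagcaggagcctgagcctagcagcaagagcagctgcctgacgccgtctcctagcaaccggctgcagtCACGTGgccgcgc
Ece1: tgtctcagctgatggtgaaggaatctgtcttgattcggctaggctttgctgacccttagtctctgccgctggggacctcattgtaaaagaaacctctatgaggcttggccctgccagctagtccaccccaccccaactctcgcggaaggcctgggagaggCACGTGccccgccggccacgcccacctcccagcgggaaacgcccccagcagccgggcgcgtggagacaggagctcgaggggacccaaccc

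Other genes of the same systems were read from lists chosen with earlier results of these data known, so their counts are descriptions, and each gene was counted at its lead probe set. Of 21 further angiotensin and vasopressin genes 18 had a probe set and 9 were bright enough to test. The mutant mean was higher for 3 and lower for 6, where 42.4% of all tested probe sets were higher. Limma called 0, with 1 at an unadjusted p under 0.05, where 15.3% of all tested probe sets passed. Over all 15 tested probe sets of the list the counts were 0 and 2. The gene passing at its lead probe set was Nr3c2, the mineralocorticoid receptor through which aldosterone acts, at 5.75 ± 0.21 in the mutant and 5.99 ± 0.076 in wild type (SD, n = 5 each), a change of -0.24 (limma adjusted p = 0.265). Enpep, the aminopeptidase that shortens angiotensin II to angiotensin III, had a change of -0.24 (limma adjusted p = 0.329), and each of the 5 mutant arrays was under the mean of wild type. The further probe set was Mme 1422975_at, named after its values were seen, with a change of 0.42 (interval 0.027 to 0.81, limma adjusted p = 0.294). Mme is neprilysin, a peptidase that cleaves angiotensins and endothelins, and on the lead, 1455961_at, it differed by 0.20 (adjusted p = 0.429). Probe sets of Agtr2, Mas1 and Avp, the type 2 receptor, the receptor of angiotensin 1-7 and vasopressin itself, were below the brightness filter.

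Of 8 further endothelin genes all had a probe set and 4 were tested, with 0 called by limma and 1 at an unadjusted p under 0.05, against 15.3% of all tested probe sets. Edn3, the gene of endothelin-3, had the lowest adjusted p of the list on 1441924_x_at. Its levels were 4.72, 4.86, 4.99, 5.005 and 4.76 in the mutant, against 4.51, 4.66, 4.53, 4.605 and 4.61 in wild type, so the groups did not overlap, as at 4.01% of all tested probe sets. The change of 0.28 (interval 0.13 to 0.44) had an adjusted p of 0.124. The suffix of this probe set marks probes that may bind unrelated transcripts, and the other 3 Edn3 probe sets were below the brightness filter. Pcsk5, a proprotein convertase, had a change of -0.17 on 1437339_s_at (adjusted p = 0.656).

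The relay behind these receptors was measured best, with 25 of 30 listed genes tested, again counted at lead probe sets. The mutant mean was higher for 8 and lower for 17 of the 25, where 42.4% of all tested probe sets were higher. The median change was -0.052, against -0.028 over all tested probe sets, and limma called 0. At an unadjusted p under 0.05 there were 6 of 25, and 11 of the 66 tested probe sets of the list, where 15.3% of all tested probe sets passed. Plcb4, a phospholipase C of the Gq pathway, had the lowest p of the list on its brightest probe set, 1435771_at. That read 10.32, 10.42, 10.67, 10.58 and 10.34 in the mutant, against 10.76, 10.73, 10.71, 10.73 and 10.68 in wild type. Among the 25 lead probe sets this was the 1 without overlap of the groups, against 4.01% of all tested probe sets. The change was -0.26 (interval -0.42 to -0.095, limma adjusted p = 0.163), and the other 4 Plcb4 probe sets had changes between -0.34 and -0.19, the lowest adjusted p being 0.0832 on 1425339_at. Prkcd, protein kinase C delta, had a change of -0.20 (limma adjusted p = 0.203). Among probe sets that do not lead their gene, Gna12 1421026_at, named after its values were seen, had a change of -0.20 (limma adjusted p = 0.313). The brighter Gna12 probe sets did not repeat that size. The change was -0.041 on the lead, 1455008_at (limma adjusted p = 0.847), and -0.059 on 1450097_s_at (limma adjusted p = 0.731). The contractile smooth muscle list mean was lower in the mutant too, as given above, and its part in these values was not tested.

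**Figure D3:**
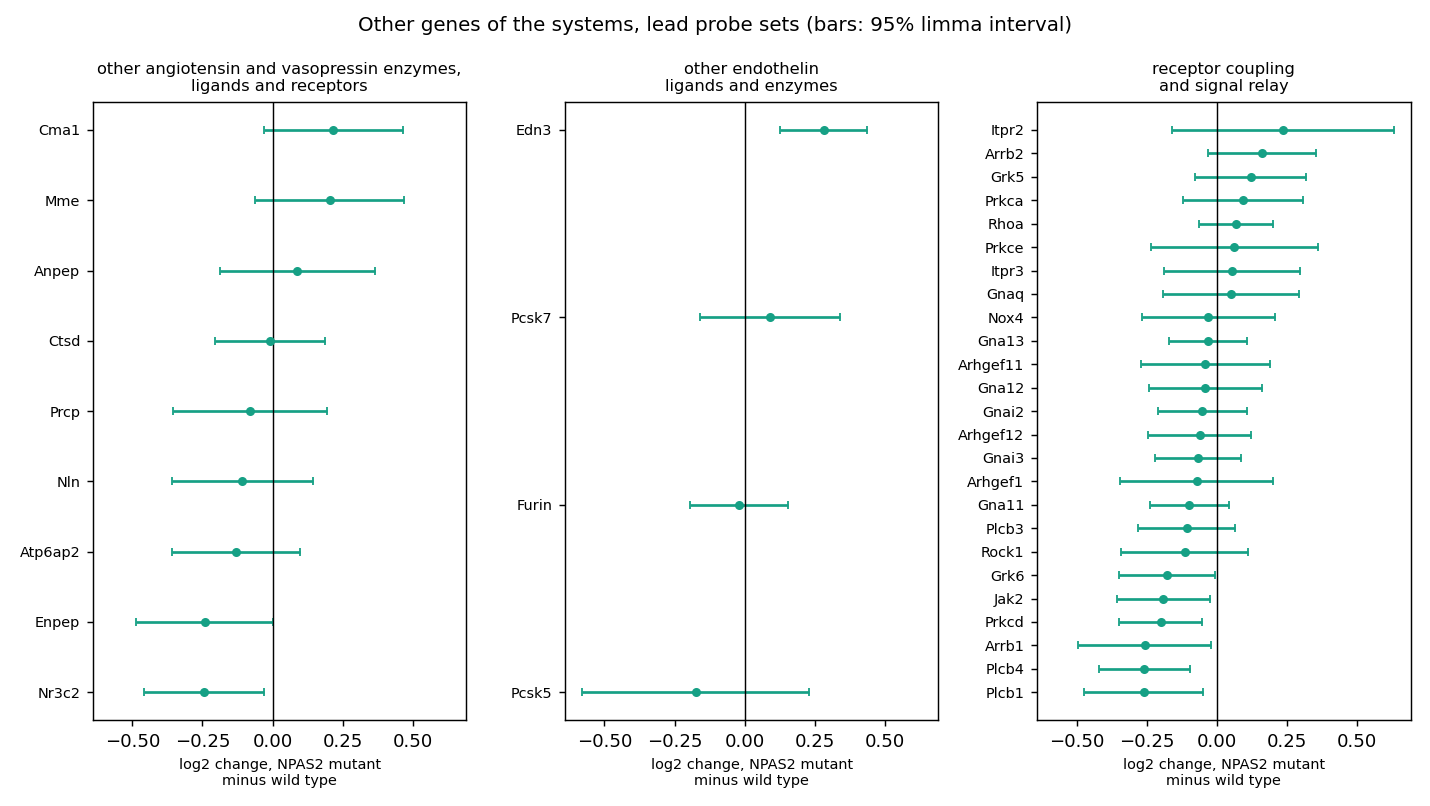
Log2 change, NPAS2 mutant minus wild type (horizontal axes), with 95% limma intervals, of the tested genes in 3 lists, each at its lead probe set. In each list 0 genes were called. Edn3 is the highest of the endothelin list at 0.28, and Plcb4 is near the bottom of the relay list at -0.26.

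The members' values were then set against other ways of handling the arrays. In 164 refits of the 8 lead probe sets, with another filter, scaling, variance model or covariate or with an array left out, 0 passed an adjusted p of 0.05. The filters, the variance model with trend and the analysis of variance cannot move a change, which leaves 136 refits that can, and 8 of them turned its sign. Ednrb, Avpr1a and Agtrap kept their direction in their 17 refits each, with changes from 0.23 to 0.999, from 0.25 to 0.58 and from -0.44 to -0.047. Ece1 turned in 4 refits, and Ace, Agtr1a, Agtr1b and Edn1 in 1 each. The refits of a gene share its lead probe set and most arrays, so a kept direction is not separate evidence. Averaging the tested probe sets of a gene turned the sign of Ace and Ece1. It gave 0.17 for Ednrb, 0.40 for Avpr1a and -0.057 for Agtrap, whose other probe set, 1460596_at, had a change of 0.074.

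**Figure D4:**
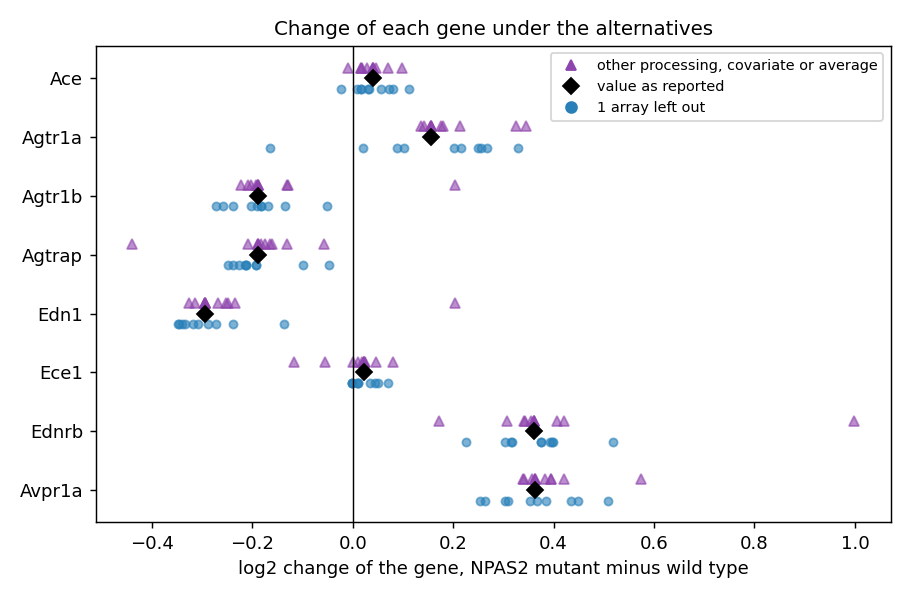
Log2 change, NPAS2 mutant minus wild type (horizontal axis), of the 8 tested genes, at the lead probe set as reported (black), under other processing, with a covariate or as the average of the gene's tested probe sets (purple) and with 1 array left out (blue). Ednrb and Avpr1a stay above 0 and Agtrap below it throughout, the Ednrb point near 1 is the fit with the brown fat covariate, and the lowest Agtr1a point is the fit without wild-type F16.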

How the data were processed

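Total RNA of mouse aorta was labelled with biotin, and 10 Affymetrix MOE 430V2 arrays were hybridised with it, per the labels' protocols. The authors deposited log2 values, 1 per probe set and array, already summarised and normalised between arrays. GCRMA and MAS5 are named, without version or role, per the submitters' processing notes. The log2 scale was read from the deposited values, which ran from 1.10 to 14.74 with array upper quartiles between 5.40 and 5.55. No scan date was at hand, so no batch was examined. Precision is limited by having 5 arrays a group.

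Members were matched by platform symbol, with symbols updated by gene identifier. Of 45101 probe sets 64 were controls, 932 named several genes and were not used for naming, and 9160 had no gene. Controls were left out of the test, as were probe sets that exceeded the median of the same array on fewer than 5 arrays. Mutant was compared with wild type over 22340 probe sets with limma 3.58.1 in R 4.3.3 (lmFit and eBayes, two-sided, Benjamini-Hochberg over all tested probe sets, threshold 0.05). Intervals are 95% limma intervals. Dim probe sets and list means were given exact permutation tests (two-sided, 252 splits), whose smallest p is 0.00794, with no adjustment over them. The fit was tested on simulated data in which probe sets varied independently, so tissue differences shared by many probe sets of an array were not covered. Each gene was led by its brightest tested probe set. Named were every member probe set, Npas2 and, of each further list, the called genes or else the 2 with the lowest p. One further gene of the relay list is not reported here by name. Members and lists were chosen with earlier results of these data known. Alternatives covered filter, scaling, variance model, covariates, probe set averages and leaving out each array.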

Additional observations from a re-analysis of the deposited data

Results flagged for a closer look

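Among 32 groups of 5 arrays at the 16 probe sets, 6 held an array whose gap to its nearest neighbour was over 0.71 of the group's range, the size that chance gives in about 1 group in 20. Probe sets of a gene share arrays, so these are not 6 separate events. Edn1 stood at 5.73 on mutant F12, where the next mutant array was at 6.42, and the Ednrb probe set 1426314_at stood at 2.90 on the same array, next to 3.33. Agtrap 1422965_at was low on mutant F20, at 3.14, and high on wild-type F14_2, at 4.25. Mutant F18 was high at Agtrap 1460596_at, at 3.65, and at the dim Ece1 1441423_at, at 3.28. The Agtr1a value of 2.89 on wild-type F16 did not reach that size.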

How the results depend on the processing

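Under all 21 other settings 0 angiotensin and endothelin probe sets were called, with lowest adjusted p values between 0.199 and 0.512, and at most 4 had an unadjusted limma p under 0.05, on centring at the median of the tested probe sets, a setting chosen after the data were seen. The whole-table count of 48 was 17 with no filter on dim probe sets, 141 with the 75th percentile filter and 13 with the one-way analysis of variance. It was 3 with the brown fat, 7 with the skeletal muscle and 19 with the endothelial covariate. Leaving out each array gave 9 to 43 calls, with 12, 21, 30, 13 and 13 without mutant F12, F13, F18, F19 and F20, and 10, 9 and 17 without wild-type F15, F16 and F17. Of the 48 calls 21 were higher and 27 lower in the mutant, against 34 and 18 when centred on the tested probe sets, which moved the median change by 0.058. Signs turned with the brown fat covariate for Agtr1b (0.20), Edn1 (0.20) and Ece1 (-0.12), and with all tested probe sets of a gene averaged for Ace (-0.0090) and Ece1 (-0.055). Leaving out arrays gave changes from -0.024 to 0.11 for Ace, from -0.16 to 0.33 for Agtr1a and from -0.0021 to 0.070 for Ece1, and 0 to 1 dim probe sets at an exact permutation p under 0.05. The 1 was reached without wild-type F11 and without F14_2. The causes were not tested. Agtr1a, Agtr1b, Agtrap and Avpr1a have no value under the 75th percentile filter, being too dim for it. The planned comparison of Ednra with Ednrb was not run, as Ednra was not analysed here. No paired analysis was possible because each replicate identifier occurs in 1 group only.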
